A study of Homo sapiens with 27 samples.

Results

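The effect of the second CARM1 hairpin on RNA was compared between the acute myeloid leukaemia lines MOLM13 and SKNO1. The quantity tested for every gene was the log2 fold change of hairpin 2 over scramble in MOLM13 minus the same fold change in SKNO1. It used 12 of the 27 libraries of the study, 3 in each of 4 groups, and 19797 of the 57992 genes in the count table had enough reads for the test. Below, a gene "above" has a difference over 0 and a gene "below" a difference under 0, whatever its own direction in either line.

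CARM1, also named PRMT4, puts asymmetric methyl marks on arginines of histone H3 and of transcriptional coactivators, splicing factors and chromatin remodelling subunits. It is recruited to promoters and enhancers by the p160 coactivators together with the acetyltransferases CBP and p300. In the blood system it is known for restraining myeloid differentiation and for effects on the cell cycle of leukaemia cells.

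MOLM13 is a monocytic line with a KMT2A fusion and an internal tandem duplication of FLT3. SKNO1 has the fusion RUNX1-RUNX1T1 and needs GM-CSF to grow. All 4 groups were infected with a constitutive lentivirus. The controls held a scrambled short hairpin RNA, and the knockdown groups held CARM1 hairpin 2. The medium of both SKNO1 groups was supplemented with 10 ng/mL GM-CSF, and no supplement is listed for MOLM13, so line and cytokine cannot be told apart. RNA was taken 3 days after delivery of the hairpin, and the label of 1 hairpin cannot separate its action on CARM1 from any other target it may have. No label says whether replicates were separate cultures or infections, so the p-values measure the spread between these samples, which may be technical.

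The 6 MOLM13 libraries held 29320231 to 50973177 expected counts in total, and the 6 SKNO1 libraries from 34396572 to 37398427. Mitochondrial rRNA took 22.9% to 29% of the counts in MOLM13 and 0.0721% to 0.189% in SKNO1. This gap ran with line, so line and library composition cannot be told apart. Abundant structured RNAs such as 7SL took 11.3% to 13.5% with scramble and 13.3% to 21.9% with hairpin 2 in MOLM13, and 17.7% to 19.9% and 23.2% to 28.7% in SKNO1. The identity markers fitted the labels except CD34. HOXA9 ran from 27.5 to 62.1 CPM (counts scaled to the effective library size) in MOLM13 and up to 0.0252 in SKNO1. RUNX1T1 ran from 72.7 to 121 CPM in SKNO1 and up to 0.0288 in MOLM13. CD34, listed as a marker of RUNX1-RUNX1T1 lines, reached only 0.0504 CPM in SKNO1 and 0.0778 in MOLM13. Over 16 markers of lymphoid, epithelial, stromal and endothelial cells, the summed level was 92.2 to 164 CPM with scramble and 183 to 350 with hairpin 2 in MOLM13, and 7.30 to 11.9 and 10.3 to 13.6 in SKNO1. PECAM1 and NKG7 made up most of it, while CD3E, CD3G, MS4A1, EPCAM, COL1A2 and COL3A1 stayed at or under 0.101 CPM in every library. The part of the marker levels in the results was not tested. With mitochondrial rRNA and structured RNAs taken out of the counts, 40 genes were called in the difference described below, all of them among the 42 called with these RNAs kept. In SKNO1, scramble replicates 1 and 3 resembled each other more than did any other pair within a group, with a chi-square per gene of 7.86 against 40.7 or more, and the counts that fell most with both summed as 1 library are given that way too.

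CARM1 itself fell in both lines. The gene (ENSG00000142453, GRCh38 chromosome 19, 10871513 to 10923070, plus strand) had 21.3, 30.7 and 26.6 CPM in the MOLM13 scramble libraries and 5.29, 4.67 and 3.08 with hairpin 2. SKNO1 had 17.1, 18.9 and 21.1 CPM with scramble and 2.93, 2.82 and 3.05 with hairpin 2. The groups did not overlap in either line. As a share of the scramble mean, 20.2%, 17.8% and 11.8% of the RNA were left in MOLM13 and 15.4%, 14.8% and 16% in SKNO1. The means differed by 1.20 percentage points. The difference of log2 fold changes was 0.10 ± 0.29 (SE), with -2.60 in MOLM13 and -2.70 in SKNO1 (edgeR adjusted p = 0.92). This p does not show that the knockdown was equal.

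With hairpin 2 against scramble, edgeR's quasi-likelihood test called 2668 genes in MOLM13 (13.5% of those tested; 1217 higher, 1451 lower) and 1501 in SKNO1 (7.58%; 664 higher, 837 lower), at an adjusted p under 0.05. At an unadjusted p under 0.05 there were 5957 (30.1%) and 4647 (23.5%). With upper-quartile scaling the MOLM13 split was 1736 higher and 1111 lower, since that scaling moved the median log2 fold change of all genes there from 0.09 to 0.22. Of 606 genes called in both lines, 152 were higher in both, 442 were lower in both and 12 had opposite signs.

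The fold changes themselves differed between the lines for 42 genes, which is 0.212% of those tested. Of these, 15 were above (0.0758%) and 27 below (0.136%), and 38 were protein-coding. At an unadjusted p under 0.05 there were 2649 genes (13.4%). The 3 hairpin 2 libraries of MOLM13 and the 3 of SKNO1, each relative to the scramble mean of its line, did not overlap for any of the 42, which held for 30.8% of all genes. The count rested on few libraries. It was 3 without SKNO1 hairpin 2 replicate 2, 4 without SKNO1 scramble replicate 1 and 102 without MOLM13 hairpin 2 replicate 2, and 4 with the close SKNO1 scramble replicates summed. DESeq2 gave 502 and limma-voom 16.

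The 42 genes fell into 4 patterns. In 10, the change passed the test in both lines with opposite signs. In 18 it passed in MOLM13 only, with 8 higher and 10 lower, and in 13 it passed in SKNO1 only, with 10 higher and 3 lower. MCM2 was called lower in both. Including estimates that did not pass, 34 of the 42 had opposite signs in the lines, and in 21 of these MOLM13 was the line with the negative estimate. The 42 were selected for a large difference, which favours opposite signs, so this count is not a separate result.

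**Figure D1:**
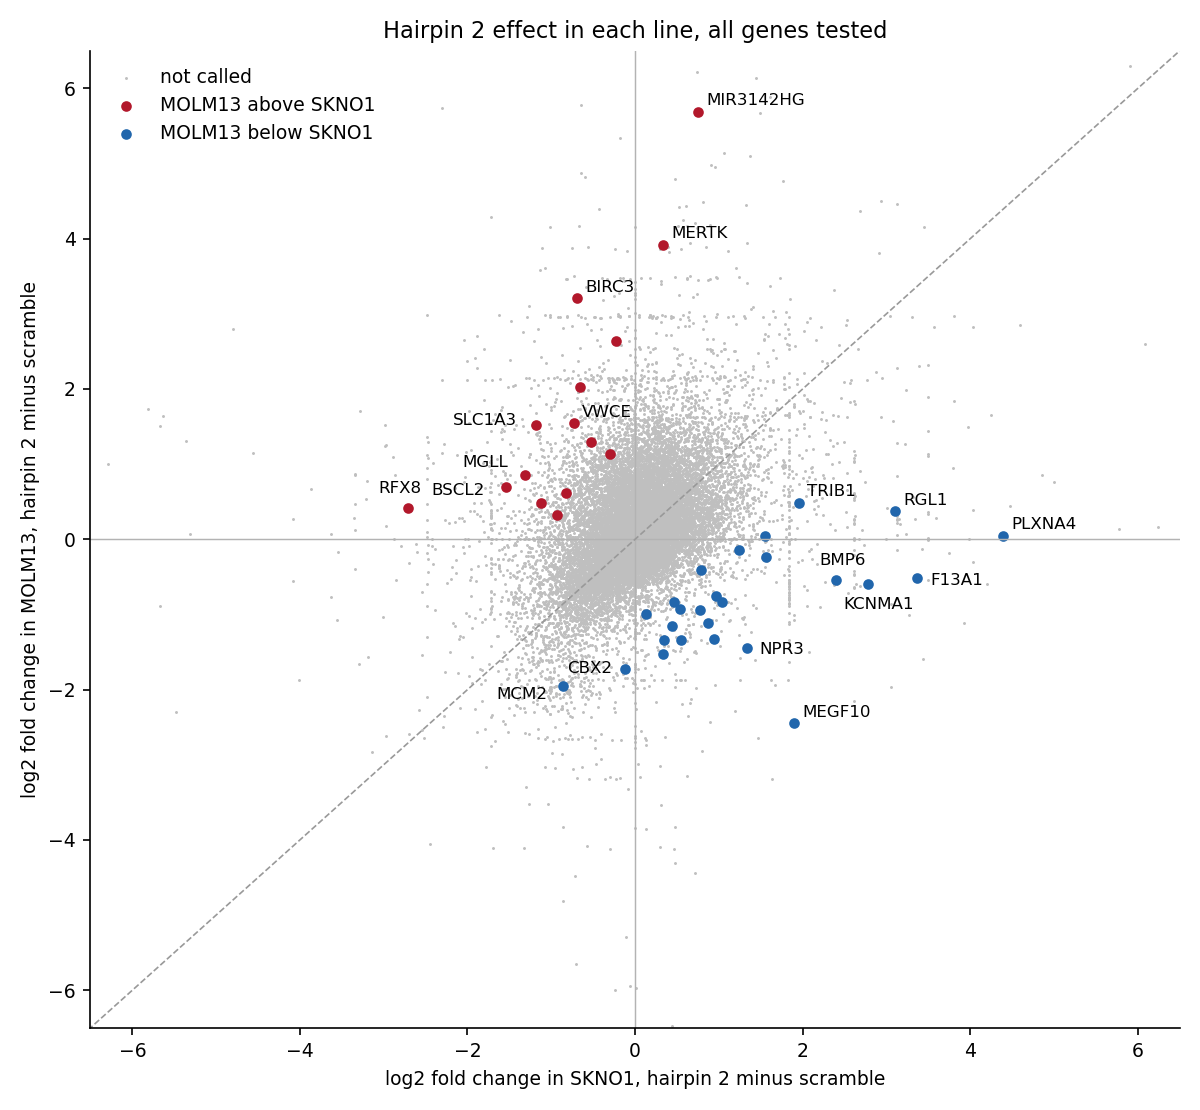
Each point is a gene, with the log2 fold change of hairpin 2 over scramble in SKNO1 on the x axis and in MOLM13 on the y axis (grey: not called; red: called above; blue: called below; dashed: equal effects; 3 libraries a group). The called genes lie mostly in the upper left and lower right, where the signs differ, while MCM2 lies in the lower left; HIST2H3A and grey points beyond ±6.5 are outside the frame.

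After HIST2H3A, whose value is uncertain and is described last, the smallest p of the difference was that of BMP6, a secreted ligand of the bone morphogenetic protein family that signals through SMAD proteins (chromosome 6, 7726797 to 7881422, plus strand). SKNO1 had 2.40, 3.06 and 2.99 CPM with scramble and 14.1, 16.1 and 14.4 with hairpin 2. MOLM13 had 0.637, 0.841 and 0.616 CPM and then 0.467, 0.440 and 0.518. Every SKNO1 knockdown library was above its controls and every MOLM13 knockdown library below its own. The log2 fold change was 2.40 ± 0.21 in SKNO1 (adjusted p = 9.28e-05) and -0.54 ± 0.25 in MOLM13 (adjusted p = 0.174), a difference of -2.94 ± 0.32 (SE; adjusted p = 0.00338). TXNDC5, a protein disulfide isomerase of the endoplasmic reticulum, ends 95 bases away on the opposite strand. Its levels were 218, 212 and 161 CPM with scramble and 157, 92.8 and 101 with hairpin 2 in MOLM13, against 128, 152 and 125 and then 255, 264 and 269 in SKNO1. TXNDC5 fell by 0.75 in MOLM13 and rose by 0.96 in SKNO1 (difference -1.72 ± 0.28, adjusted p = 0.0298). How the counting treated strand is not given in the sources used here, so reads running past the end of either gene cannot be assigned between them.

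BIRC3 showed the opposite pattern. It encodes cIAP2, a ubiquitin ligase that limits cell death and that is itself a target of NF-kB (chromosome 11, 102317450 to 102339403, plus strand). MOLM13 had 0.913, 0.841 and 0.7 CPM with scramble and 9.57, 3.99 and 9.07 with hairpin 2. SKNO1 started higher, at 60.6, 30.3 and 58.4 CPM, and had 28.2, 35.4 and 29.1 with hairpin 2. The rise of 3.21 ± 0.36 in MOLM13 passed (adjusted p = 0.000232). In SKNO1 the libraries overlapped and the estimate was -0.69 ± 0.29 (adjusted p = 0.174). The difference was 3.90 ± 0.47 (SE; adjusted p = 0.0059).

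MIR3142HG, the host transcript of miR-3142 and miR-146a, also rose in MOLM13 (chromosome 5, 160438594 to 160487426, plus strand). miR-146a is a microRNA induced by NF-kB that lowers the adaptors TRAF6 and IRAK1. In MOLM13 the host had 0, 0.0935 and 0 CPM with scramble and 1.28, 0.812 and 2.39 with hairpin 2. SKNO1 libraries held 91.7, 59.3 and 88.5 CPM and then 142, 141 and 119. The MOLM13 controls together held 3 counts against 140 with hairpin 2, a ratio of 59.8 with an exact 95% interval of 20.1 to 294 that covers counting error only. The fitted difference of 4.94 ± 0.81 (adjusted p = 0.0298) depends on the prior count for that reason. The table has no row for miR-146a itself, whose sequence is shown because it is the product of this transcript, with the seed (bases 2 to 8) in capitals. RefSeq places it at chr5:160485372-160485393 on the plus strand of GRCh38.p14.
hsa-miR-146a-5p: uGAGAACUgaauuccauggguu

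The stretch upstream of a RefSeq start of MIR3142HG is shown because it holds the only NF-kB match among the 27 called genes with a promoter window. The other called genes had no window and were not searched. It is chr5:160468061-160468210, plus strand, GRCh38.p14, ending 41 bases before that start, and the match is in capitals. NF-kB was searched as 5 kappa B decamers on both strands, in the promoter window of each RefSeq start.
MIR3142HG upstream: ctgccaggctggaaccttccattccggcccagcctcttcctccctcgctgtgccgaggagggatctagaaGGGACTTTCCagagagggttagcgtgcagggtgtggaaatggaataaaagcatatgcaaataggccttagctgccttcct
A match stood in 0.715% of all 35116 windows and 2.27% of the windows of called genes. By gene, it stood in 0.879% of all genes with a window, in 1 of the 27 called ones (3.70%) and in 10 of the 24 NF-kB genes (41.7%). The BIRC3 window had none. A match is a description of these letters and not of binding.

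IRX5 and IRX3, homeobox factors of the Iroquois family that stand 644099 bases apart on chromosome 16, moved the same way. IRX5 (54930862 to 54934485, plus strand) had 1.47, 1.75 and 1.29 CPM with scramble and 0.7, 0.643 and 0.461 with hairpin 2 in MOLM13. In SKNO1 it had 16.9, 15.3 and 19.3 CPM and then 29.4, 37.0 and 32.6. It fell by 1.32 in MOLM13 (adjusted p = 0.00301) and rose by 0.95 in SKNO1 (adjusted p = 0.00773), a difference of -2.27 ± 0.29 (adjusted p = 0.00918). IRX3 (54283304 to 54286763, minus strand) had 6.78, 7.73 and 3.86 CPM and then 2.76, 2.84 and 2.82 in MOLM13. Its SKNO1 libraries held 20.3, 17.7 and 22.9 CPM and then 31.3, 43.1 and 36.8. Both genes were lower in every MOLM13 knockdown library than in every control and higher in every SKNO1 one. The IRX3 difference was -1.99 ± 0.32 (adjusted p = 0.0298).

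Across the 42 genes, 6 pairs lay within 1 Mb of each other, involving 9 genes, and 5 of the pairs had differences of the same sign. The pairs among POLE, PXMP2 and PGAM5 share members, so the pairs are not independent. How many such pairs other tested genes form was not counted, so these counts are not read as a result. The densest group was on chromosome 12. POLE, the catalytic subunit of the leading-strand DNA polymerase epsilon (132623753 to 132687365, minus strand), and PXMP2, a channel protein of the peroxisome membrane (132687606 to 132704991, plus strand), start back to back 241 bases apart. PGAM5, a mitochondrial phosphatase, follows 5828 bases after PXMP2.

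POLE had 64.2, 56.5 and 68.3 CPM with scramble and 30.8, 27.8 and 16 with hairpin 2 in MOLM13. SKNO1 had 278, 254 and 291 CPM and then 376, 396 and 432. It fell by 1.34 ± 0.21 in MOLM13 (adjusted p = 0.00155). In SKNO1 the estimate was 0.55 ± 0.21, with every knockdown library above every control, and did not pass (adjusted p = 0.119). The difference was -1.89 ± 0.29 (adjusted p = 0.0298). PXMP2 went from 6.37, 7.39 and 7.17 CPM to 3.19, 2.06 and 2.99 in MOLM13. In SKNO1 it had 34.4, 47.5 and 33.4 CPM and then 41.3, 52.9 and 51.8, which overlap. Its difference was -1.69 ± 0.28 (adjusted p = 0.0298). PGAM5, named after its values were seen, had 51.7, 61.9 and 49.7 CPM and then 25.8, 26.3 and 29.6 in MOLM13, and 56.2, 67.0 and 58.7 and then 62.7, 67.6 and 69.3 in SKNO1 (difference -1.13 ± 0.20, adjusted p = 0.034).

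A stretch upstream of the RefSeq start of POLE is shown because POLE and PXMP2 start back to back there. It is chr12:132687343-132687502, read on the minus strand of GRCh38.p14 from RefSeq. It ends at the base before that start and stops short of PXMP2. The first capitals mark overlapping CCAAT and ATTGG letters. The second mark GCGCCAAA, an E2F match that starts 18 bases before the RefSeq start of POLE. GENCODE places the POLE start at 132687365, so by GENCODE the last bases, with the E2F match, lie inside POLE.
POLE and PXMP2 shared upstream: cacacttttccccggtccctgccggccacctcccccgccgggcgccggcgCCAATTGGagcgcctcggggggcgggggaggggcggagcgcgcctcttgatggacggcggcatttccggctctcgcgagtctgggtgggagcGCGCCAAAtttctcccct
E2F was searched as TTTCCCGC, TTTGGCGC, TTTCGCGC and TTTGCCGC on both strands, and CCAAT on both strands. An E2F match stood in 3.31% of all windows and 9.09% of the windows of called genes. By gene, it stood in 3.99% of all genes with a window, in 4 of the 27 called ones (14.8%) and in 24 of the 43 replication genes (55.8%). CCAAT stood in 34.6% of all windows and 34.1% of the windows of called genes, and in 39.7% of all genes and 13 of those 27 (48.1%).

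MCM2, a subunit of the helicase that opens replication origins, was the called gene that passed as lower in both lines (chromosome 3, 127598223 to 127622436, plus strand). MOLM13 had 102, 118 and 105 CPM with scramble and 24.9, 31.8 and 27.2 with hairpin 2. SKNO1 had 140, 147 and 143 CPM and then 83.8, 70.5 and 83.2. Neither pair of groups overlapped. The fall was 1.95 ± 0.15 in MOLM13 and 0.86 ± 0.14 in SKNO1 (difference -1.10 ± 0.20, adjusted p = 0.0484). The call in the difference held in 4 of 11 other settings and in 2 of 12 fits with 1 library left out. The bases around its RefSeq start are shown for the overlapping E2F matches in capitals, at chr3:127598399-127598428, plus strand, GRCh38.p14.
MCM2 start: tcacgtgaaccactTTTCGCGCGAAAcctg
MGLL, the lipase that cleaves monoacylglycerols, ends 66626 bases from MCM2 on the other strand and had a difference of the other sign. It had 14.9, 10.8 and 9.87 CPM and then 12.9, 23.2 and 28.0 in MOLM13, which overlap, and 10.3, 10.6 and 10.8 and then 3.81, 4.10 and 4.87 in SKNO1 (difference 2.16 ± 0.36, adjusted p = 0.0298).

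**Figure D2:**
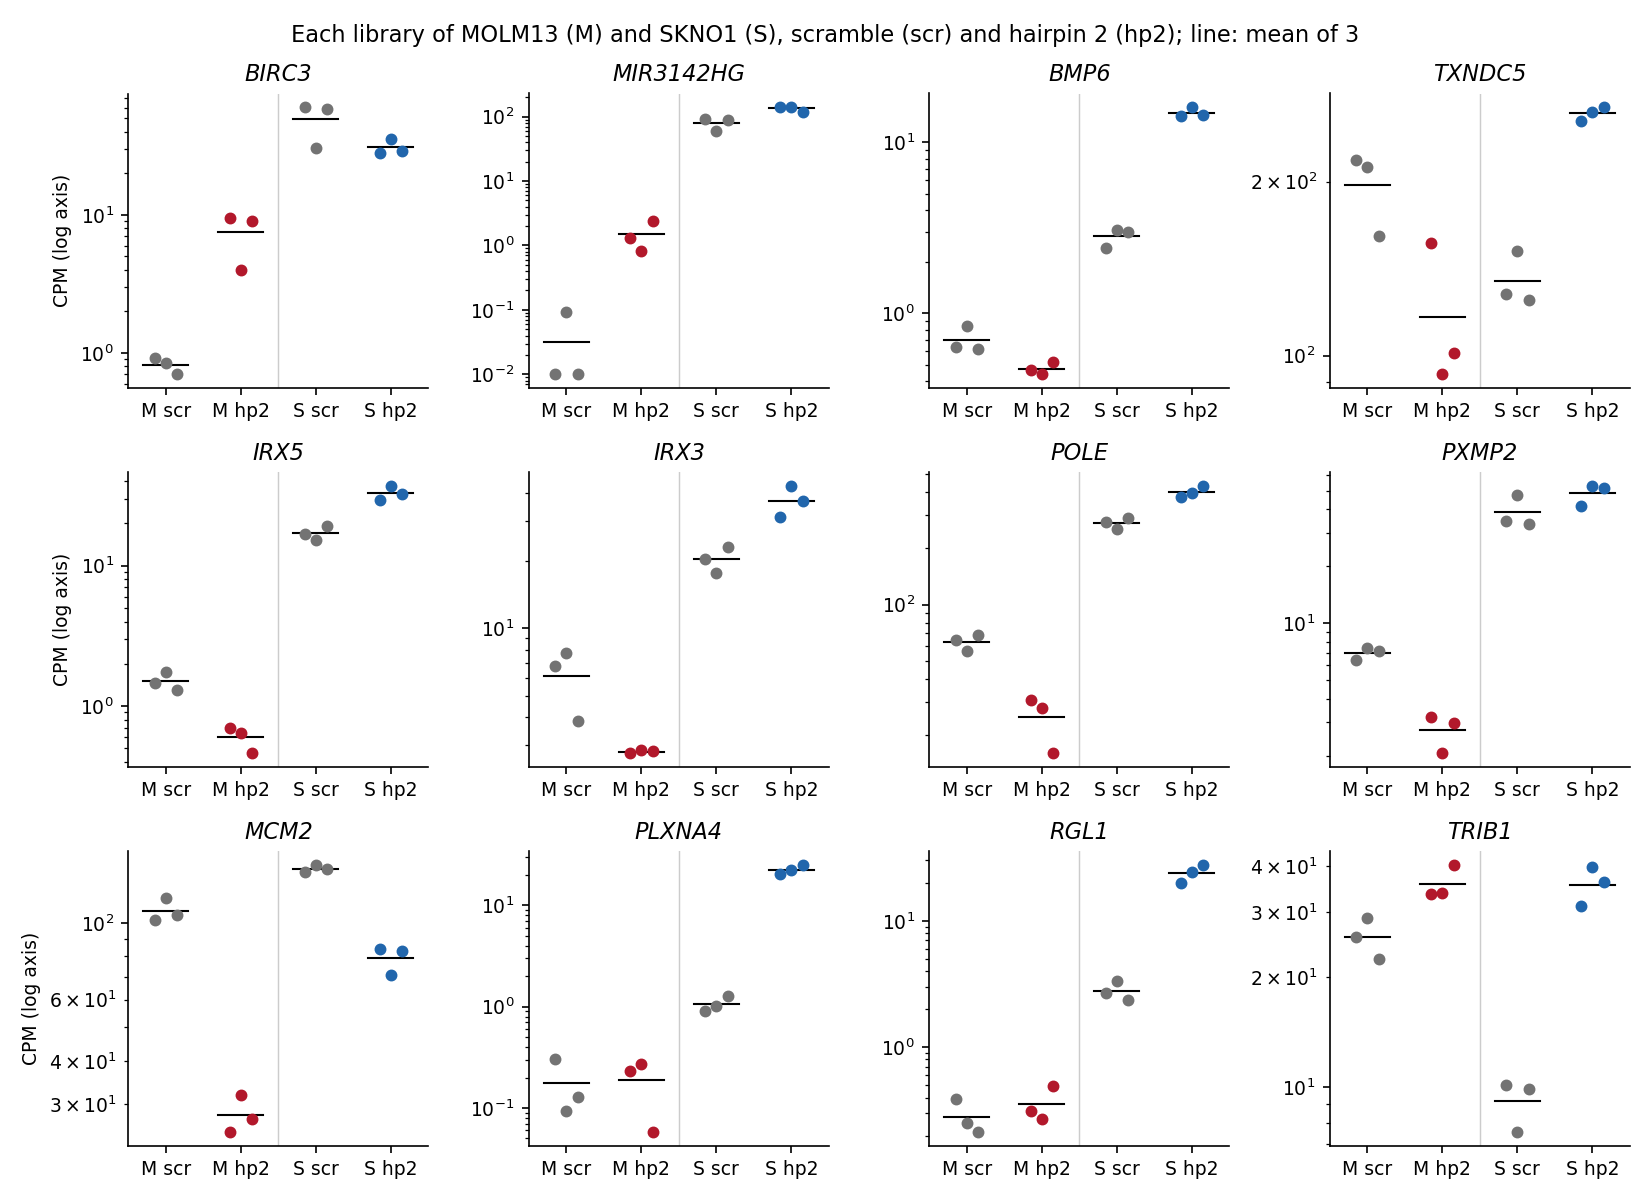
CPM of 12 called genes in each of the 3 libraries of MOLM13 (M) and SKNO1 (S) with scramble (scr) and hairpin 2 (hp2), on log axes that differ between panels and that do not start at 0; the black line is the mean, and the MIR3142HG libraries with 0 counts are drawn at 0.01. BIRC3 and MIR3142HG rise from low levels in MOLM13, IRX5, IRX3, TXNDC5 and BMP6 move in opposite directions, and PLXNA4 and RGL1 rise in SKNO1.

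The other genes called in both lines with opposite signs kept this form. NPR3, the clearance receptor of natriuretic peptides, had 1.94, 2.37 and 2.17 CPM and then 0.973, 0.812 and 0.605 in MOLM13, and 14.8, 27.7 and 13.3 and then 29.7, 50.7 and 60.3 in SKNO1. Its difference was -2.79 ± 0.46 (adjusted p = 0.0298). SYNJ2, an inositol phosphatase of membrane traffic, fell by 0.94 in MOLM13 and rose by 0.77 in SKNO1, and DUSP5, a nuclear phosphatase of ERK, fell by 0.84 and rose by 1.04. In the other direction, SLC1A3, a glutamate transporter, had log2 fold changes of 1.52 in MOLM13 and -1.18 in SKNO1. GSAP, the gamma-secretase activating protein, had 0.49 and -1.12, MGLL had 0.85 and -1.31, and CYFIP2, a subunit of the WAVE actin complex, had 0.62 and -0.83. In 9 of these 10 genes, MGLL being the exception, the knockdown libraries did not overlap the controls in either line.

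Genes that changed in SKNO1 and hardly in MOLM13 included PLXNA4, with the largest fitted rise in SKNO1 among the called genes. PLXNA4, a semaphorin receptor (chromosome 7, 132123332 to 132648688, minus strand), had 0.913, 1.01 and 1.28 CPM with scramble and 20.4, 22.2 and 25.2 with hairpin 2 in SKNO1. In MOLM13 it stayed between 0.0576 and 0.304 CPM, and the groups overlapped. The log2 fold change was 4.39 ± 0.34 in SKNO1 (adjusted p = 4.71e-05) and 0.05 ± 0.53 in MOLM13. RGL1, an exchange factor for Ral GTPases, went from 2.67, 3.33 and 2.35 CPM to 19.8, 24.4 and 27.7 in SKNO1 and had 0.388, 0.249 and 0.212 and then 0.311, 0.271 and 0.489 in MOLM13. Both genes were near the limit of detection in MOLM13, where a change is hard to see. KCNMA1, a calcium-activated potassium channel, was low in both lines, with 0.289, 0.169 and 0.299 CPM and then 1.87, 1.81 and 1.61 in SKNO1 and 1.25 to 2.90 CPM in MOLM13. F13A1, the A chain of coagulation factor XIII, which macrophages make, had 0.334, 0.458 and 0.277 CPM and then 2.19, 4.20 and 4.69 in SKNO1, and 26.5, 15.9 and 9.45 and then 8.87, 7.11 and 20.035 in MOLM13. It was named after its values were seen.

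TRIB1, RCBTB1, ENC1 and RRBP1 also rose in SKNO1 and were well expressed in both lines. TRIB1, a pseudokinase that directs the factor CEBPA to degradation, had 10.1, 7.54 and 9.90 CPM and then 31.1, 39.7 and 36.1 in SKNO1. In MOLM13 it had 25.7, 28.8 and 22.3 CPM and then 33.5, 33.7 and 40.3. Knockdown libraries were higher in both lines, but the estimate of 0.49 in MOLM13 did not pass (adjusted p = 0.0694) while the rise of 1.95 in SKNO1 did, and the difference was -1.47 ± 0.24 (adjusted p = 0.0298). RCBTB1 had log2 fold changes of -0.24 in MOLM13 and 1.56 in SKNO1, ENC1, an actin-binding adaptor, 0.05 and 1.55, and RRBP1, a ribosome-binding protein of the endoplasmic reticulum named after its values were seen, -0.14 and 1.24. DACH1, a transcriptional corepressor also named after its values were seen, had -0.41 and 0.79. The genes that passed as lower in SKNO1 only were RFX8, BSCL2 and TTLL4. RFX8, of the RFX transcription factor family, went from 1.58, 0.916 and 1.37 CPM to 0.353, 0.102 and 0.126 in SKNO1 and had 11.7, 9.5 and 13.2 and then 21.1, 14.4 and 10.6 in MOLM13. BSCL2, the lipid droplet protein seipin, had log2 fold changes of 0.70 in MOLM13 and -1.54 in SKNO1, and TTLL4, a tubulin glutamylase, 0.32 and -0.93.

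Among genes that changed in MOLM13 only, MERTK, the receptor kinase by which macrophages take up dying cells, had 0.0554, 0.0623 and 0.106 CPM with scramble and 0.895, 0.609 and 2.10 with hairpin 2. SKNO1 held 6.57, 5.88 and 6.19 CPM and then 6.81, 8.60 and 8.14, where the estimate of 0.34 did not pass (adjusted p = 0.593). MERTK was named after its values were seen. VWCE had log2 fold changes of 1.55 in MOLM13 and -0.73 in SKNO1, UAP1L1 had 1.29 and -0.53, and the long noncoding RNA PVT1, a neighbour of MYC, had 1.14 and -0.30. FAM157C and the pseudogene CH17-472G23.4, both outside the naming rule, rose by 2.64 and 2.03 in MOLM13. CBX2, a reader subunit of Polycomb repressive complex 1, fell from 3.54, 4.64 and 3.31 CPM to 1.36, 1.22 and 0.921 in MOLM13 and had 48.8, 56.4 and 52.9 and then 46.2, 47.9 and 51.7 in SKNO1 (difference -1.60 ± 0.25, adjusted p = 0.0298). NBL1, a secreted antagonist of bone morphogenetic proteins, fell by 1.53 in MOLM13 with an estimate of 0.33 in SKNO1. Outside the rule, SATB1, a chromatin organiser, fell by 0.83 there, HACD2, an enzyme of fatty acid elongation, by 0.93, the thrombin receptor F2R by 1.16 and MEGF10, an engulfment receptor, by 2.44, with SKNO1 estimates of 0.46, 0.53, 0.44 and 1.90. MEGF10 was under 1 CPM in both lines except in a single MOLM13 control at 1.15.

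HIST2H3A, a gene of histone H3, had the largest fitted difference of all, -10.11 ± 0.91, and that value is uncertain. In MOLM13 it had 38.6, 58.6 and 22.7 CPM with scramble and 0, 0.102 and 0 with hairpin 2, and in SKNO1 33.2, 45.5 and 36.8 and then 17.0, 38.9 and 61.1. HIST2H3C is a near-identical copy, and RSEM divides reads between such copies. With both summed, the difference was -1.62 ± 0.68 (adjusted p = 0.333), with -2.10 in MOLM13 (adjusted p = 0.0159) and -0.48 in SKNO1 (adjusted p = 0.604).

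Lists of genes of known function were then read by their counts and medians in each line. Over all genes tested, the median log2 fold change was 0.09 in MOLM13 and 0.00 in SKNO1, and the median difference was 0.06. These are the values against which the list medians are read, and no list was tested as a set. The difference had an unadjusted p under 0.05 for 13.4% of all genes, the share beside which such list counts are read. It was under 0 for 9075 of the 19797 genes and over 0 for 10722, and the sign counts of lists are read beside these.

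More mitosis genes were called lower in MOLM13 than in SKNO1. All 47 of 47 were lower in MOLM13 (7.33% of all genes were), and 10 were lower in SKNO1 (4.23%). The medians were -2.03 and -0.77, and the median difference was -1.22. All 47 differences were under 0 and 38 had an unadjusted p under 0.05, but edgeR called 0, limma-voom 0 and DESeq2 22. KIF20A, a kinesin of cytokinesis, had 15.5, 20.1 and 20.8 CPM and then 5.29, 3.96 and 4.46 in MOLM13, and 39.0, 63.5 and 37.7 and then 31.9, 27.9 and 37.9 in SKNO1. CDC20, which activates the anaphase ubiquitin ligase, had 22.6, 28.9 and 28.1 CPM and then 6.77, 7.52 and 5.56 in MOLM13, and 20.1, 37.9 and 20.8 and then 19.0, 18.3 and 26.4 in SKNO1. In both genes the MOLM13 groups were apart and the SKNO1 groups overlapped. The difference for CDC20 was -1.70 ± 0.35 (adjusted p = 0.0799), for KIF20A -1.52 ± 0.31 (0.0799) and for the chromosomal passenger protein BIRC5 -1.51 ± 0.32 (0.0835). Leaving out 1 library left 45 to 47 of the MOLM13 calls. In SKNO1 it gave 3 without hairpin 2 replicate 2 and 19 without MOLM13 hairpin 2 replicate 3.

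Most DNA replication genes fell in both lines. Of 51 genes, 49 were lower in MOLM13 (7.33% of all genes were) and 37 in SKNO1 (4.23%), with medians of -1.63 and -0.98 and a median difference of -0.49. POLE and MCM2 were called in the difference. RRM2, the small subunit of ribonucleotide reductase, had 66.3, 72.5 and 64.1 CPM and then 18.9, 17.4 and 10.6 in MOLM13. In SKNO1 it had 55.4, 80.0 and 54.6 CPM and then 58.2, 37.5 and 45.7, which overlap (difference -1.69 ± 0.32, adjusted p = 0.0579). PCNA, the sliding clamp, had -0.70 in MOLM13 (adjusted p = 0.0687) and fell by 0.98 in SKNO1. The count in SKNO1 was 18 without hairpin 2 replicate 2.

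Of 69 replication-dependent histone genes, 49 were lower in MOLM13 (7.33% of all genes were) and 1 in SKNO1 (4.23%), with medians of -1.61 and -0.69 and a median difference of -1.06. HIST2H3A was called in the difference, and 20 had an unadjusted p under 0.05. HIST2H2BE had log2 fold changes of -1.43 in MOLM13 and -0.02 in SKNO1, and HIST1H2AC -0.71 and 0.63, both without passing in the difference (adjusted p = 0.194 and 0.208). MOLM13 scramble replicate 1 was low for the histones, with a mean log2 difference of -0.82 from the scramble mean of its line against 0.37 and 0.45, and the MOLM13 count was 25 without scramble replicate 3. Most clustered histone mRNAs lack a poly(A) tail and are kept by rRNA depletion, the method used here, and near-identical copies share reads.

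**Figure D3:**
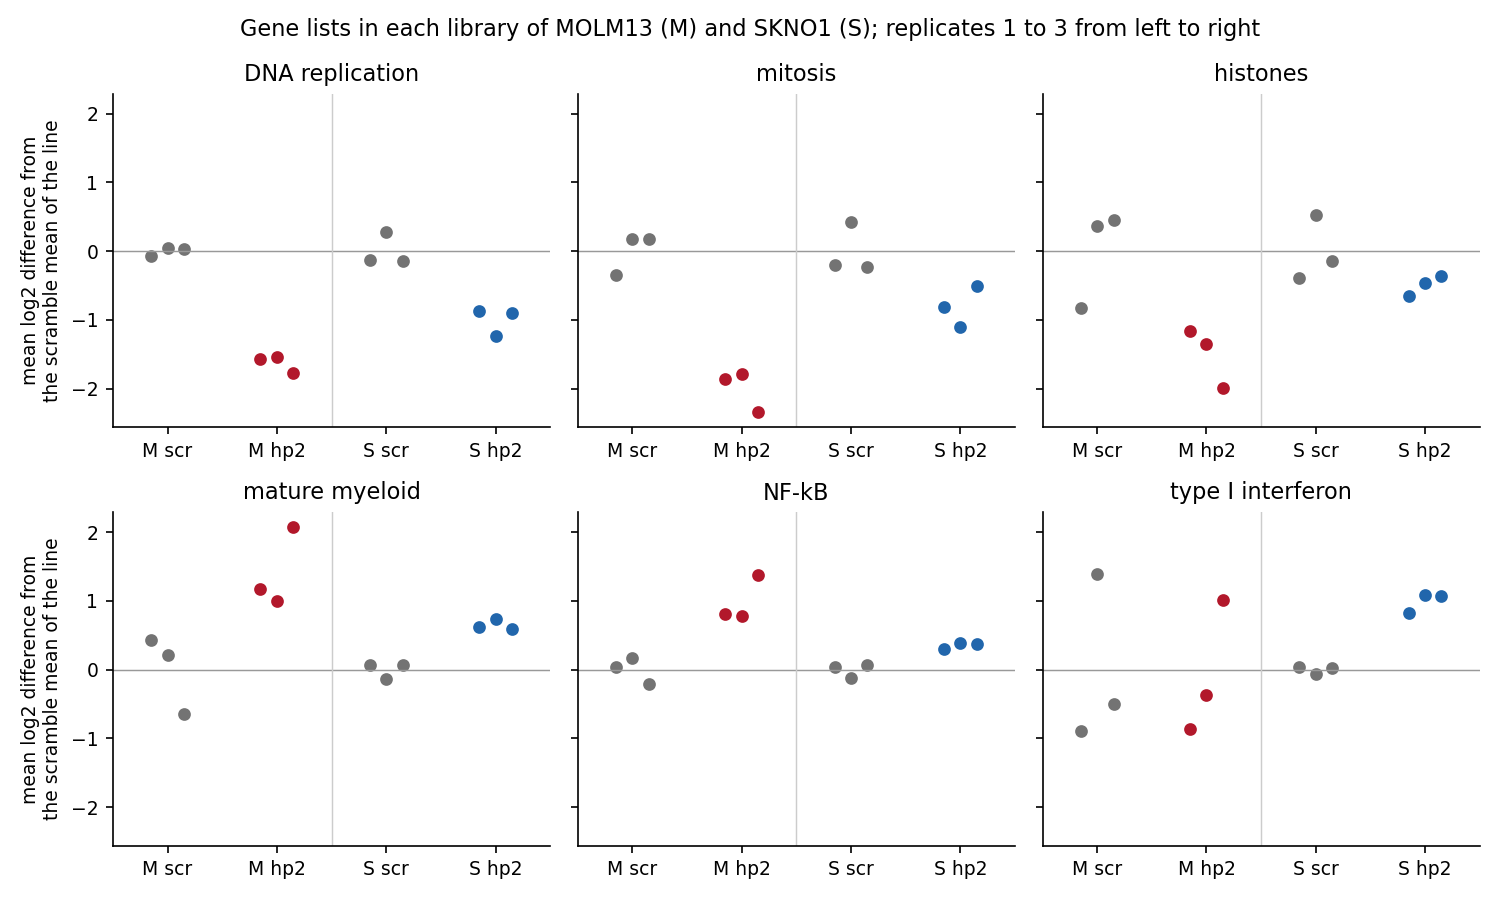
Mean log2 difference of each list from the scramble mean of its line, by library, for MOLM13 (M) and SKNO1 (S) with scramble (scr) and hairpin 2 (hp2), 3 points a group. Replication and mitosis libraries separate from scramble in both lines and lie lower in MOLM13, while for interferon the MOLM13 groups overlap and the 3 SKNO1 hairpin 2 libraries lie at 0.83, 1.08 and 1.07.

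Calls among type I interferon genes were mostly rises in SKNO1. Of 38 genes, 4 were higher there (3.35% of all genes were) and 0 lower, and in MOLM13 1 was higher (6.15%) and 1 lower. The medians were 0.91 in SKNO1 and -0.01 in MOLM13, and 33 of the 38 differences were under 0 with a median of -0.92. In the difference edgeR called 0, limma-voom 0 and DESeq2 3, and 10 had an unadjusted p under 0.05. ISG15, a ubiquitin-like interferon product, had 0.445, 0.723 and 0.555 CPM and then 2.24, 3.61 and 4.19 in SKNO1. In MOLM13 it had 6.31, 25.1 and 5.18 CPM and then 6.93, 4.84 and 10.4, where a single control stood above the rest (difference -3.26 ± 0.75, adjusted p = 0.106). CMPK2, a mitochondrial nucleotide kinase induced by interferon, rose by 1.41 in SKNO1 and had -0.39 in MOLM13. USP18, which removes ISG15, fell by 1.47 in MOLM13 and had 0.46 in SKNO1. The mean of the list in MOLM13 scramble replicate 2 was 1.39 above the scramble mean, against -0.89 and -0.50, and that in hairpin 2 replicate 3 was 1.01 against -0.86 and -0.36. The SKNO1 count was 0 without hairpin 2 replicate 2 and 1 with the close controls summed.

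More NF-kB genes were called higher in MOLM13 than in SKNO1. Of 28 genes, 14 were higher in MOLM13 (6.15% of all genes were) and 3 in SKNO1 (3.35%), and 0 were lower. The medians were 1.05 and 0.28, and the median difference was 0.55. BIRC3 was the gene called in the difference, with DESeq2 calling 3. IL1B, the cytokine interleukin 1 beta, had 0.858, 0.530 and 0.297 CPM and then 1.25, 1.83 and 8.15 in MOLM13, and 21.2, 19.9 and 20.4 and then 22.1, 17.1 and 17.3 in SKNO1 (difference 2.90 ± 0.76, adjusted p = 0.136). NFKBIA, the inhibitor that NF-kB induces, had 19.7, 21.1 and 17.3 CPM and then 50.0, 35.1 and 63.8 in MOLM13, and 69.9, 50.0 and 69.6 and then 81.5, 79.9 and 63.7 in SKNO1 (difference 1.11 ± 0.30, adjusted p = 0.145). Both started lower in MOLM13 and their SKNO1 groups overlapped. NFKBIB was among the 6 genes with a difference under 0, at -0.58. The MOLM13 count was 7 without scramble replicate 3 and the SKNO1 count 0 without scramble replicate 1 or with the close controls summed.

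Some genes of mature monocytes and macrophages rose in each line. Of 42, 19 were higher in MOLM13 (6.15% of all genes were) and 7 in SKNO1 (3.35%), with 0 lower and medians of 1.18 and 0.64. The median difference was 0.65, and edgeR, limma-voom and DESeq2 each called 0 in it. On either side 2 genes had an unadjusted p under 0.05, a smaller share than the 13.4% of all genes. CD14, the endotoxin co-receptor, had 0.111, 0.187 and 0.0637 CPM and then 1.40, 2.44 and 6.56 in MOLM13, and at most 0.0252 CPM in SKNO1. APOE, the lipid carrier of macrophages, had 1.66, 2.80 and 0.658 CPM and then 4.79, 14.1 and 29.8 in MOLM13, and 0.557, 0.482 and 0.768 and then 0.681, 1.45 and 0.908 in SKNO1 (difference 2.53 ± 0.86, adjusted p = 0.24). IGF1, which macrophages also secrete, went the other way, with a difference of -4.04 ± 0.98 (adjusted p = 0.114) at levels up to 0.636 CPM. MOLM13 scramble replicate 3 was low for this list, at -0.65 against 0.43 and 0.21, and the MOLM13 count was 11 without it, while the SKNO1 count of 7 was 1 without scramble replicate 2 and 2 with the close controls summed. In bulk RNA, more cells of a type and more RNA per cell cannot be told apart.

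Of 36 genes of ATF4 and amino acid metabolism, 22 were lower in MOLM13 (7.33% of all genes were) and 2 in SKNO1 (4.23%), the latter near the share of all genes, with medians of -0.96 and -0.41 and 34 differences under 0. SLC1A5, a glutamine transporter, had log2 fold changes of -1.23 and 0.16, MTHFD2, of the mitochondrial one-carbon pathway, -1.02 and 0.14, and GARS, the glycyl-tRNA synthetase, -1.12 and 0.16. None of the differences passed (adjusted p = 0.131, 0.122 and 0.113). Of 34 MYC and ribosome biogenesis genes, 24 were lower in MOLM13 and 11 in SKNO1, MYC itself with -0.92 (adjusted p = 0.00851) and -0.42 (adjusted p = 0.205). Splicing factors were lower in 13 of 38 in MOLM13 and in 1 in SKNO1, the latter near the share of all genes, and lipid synthesis genes in 9 of 27 and in 4. In the difference of these 4 lists edgeR called 0 genes, and 9, 1, 5 and 1 had an unadjusted p under 0.05, all under 0. Over all genes 13.4% had such a p in either direction. The splicing count was near that share and the ribosome biogenesis and lipid counts were under it. DESeq2 called 4 amino acid genes and 0 of the others. The MOLM13 counts without scramble replicate 2 were 11, 8, 4 and 0, the lipid count was 16 without scramble replicate 3, and the ribosome biogenesis count of SKNO1 was 0 without scramble replicate 2. With the close SKNO1 controls summed, the SKNO1 counts of these lists were 0, 2, 0 and 2.

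The coactivators and substrates through which CARM1 acts had lower estimates in MOLM13 than in SKNO1 throughout. All 14 differences of that list were under 0, with a median of -0.55 and medians of -0.13 in MOLM13 and 0.40 in SKNO1. Such a sign count was not particular to this list. Differences were also under 0 for 35 of 38 splicing factors, 69 of 77 ribosomal protein genes and 13 of 13 mitochondrial mRNAs. They were over 0 for 30 of 37 lysosome genes. In SKNO1 4 of the 14 rose (3.35% of all genes were higher) and in MOLM13 2 fell (7.33% were lower), a count about 1 gene above that share. NCOA3, the p160 coactivator AIB1, had 42.1, 44.0 and 41.4 CPM and then 102, 130 and 122 in SKNO1, and 72.1, 63.2 and 60.1 and then 81.6, 74.4 and 122 in MOLM13. Its difference was -0.96 ± 0.26 (adjusted p = 0.148). EP300, the acetyltransferase p300, rose by 0.71 in SKNO1 and had 0.07 in MOLM13. SMARCC1, the SWI/SNF scaffold BAF155, fell by 0.47 in MOLM13 and had 0.31 in SKNO1. In this list edgeR and limma-voom called 0 differences, DESeq2 called 3, and 7 had an unadjusted p under 0.05. Without MOLM13 scramble replicate 2, 0 fell in MOLM13, and 2 rose in SKNO1 without SKNO1 scramble replicate 1 or with the close controls summed. Of 11 arginine methyltransferases and cofactors, CARM1 included, 6 passed as lower in MOLM13 (7.33% of all genes did). In SKNO1 CARM1 alone did (4.23%), and PRMT1 had -0.53 and -0.17. The median difference of these 11 was -0.13, edgeR called 0 of them in it, and 0 had an unadjusted p under 0.05. The MOLM13 count was 1 without scramble replicate 2.

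Cytokine signalling was compared because GM-CSF is listed for SKNO1 only, and cell cycle inhibitors are given beside it. Of 22 genes of the GM-CSF receptor and JAK-STAT5 pathway, 2 rose and 4 fell in MOLM13 (6.15% and 7.33% of all genes), and 3 rose in SKNO1 (3.35%). The rises in MOLM13 were near the share of all genes. SOCS2, a feedback inhibitor that STAT5 induces, had 112, 148 and 148 CPM and then 61.2, 59.8 and 91.0 in MOLM13, and 63.8, 106 and 62.1 and then 90.9, 137 and 110 in SKNO1, where they overlap (difference -1.48 ± 0.34, adjusted p = 0.106). The kinase PIM1 had -1.11 and 0.09 and the cyclin CCND2 -0.77 and 0.15, both with falls that passed in MOLM13 (adjusted p = 0.0126 and 0.0148). CSF2RA, the receptor's alpha chain, rose by 0.77 in MOLM13 and had 0.10 in SKNO1. All 6 MOLM13 calls of the list were lost without scramble replicate 2, and the 3 SKNO1 calls without scramble replicate 1 or with the close controls summed. In the difference edgeR called 0 of 22, DESeq2 3 and limma-voom 0, with 7 at an unadjusted p under 0.05. Among 22 cell cycle inhibitors, CDKN1A, which encodes p21, had 0.80 in MOLM13 (adjusted p = 0.133) and rose by 2.14 in SKNO1 (adjusted p = 0.00573), from a mean of 215 CPM in the controls of MOLM13 and 2.56 in those of SKNO1. CDKN2C, which encodes p18, fell by 0.77 in MOLM13 and had 0.43 in SKNO1, and the stress gene GADD45B rose by 1.27 and had 0.00. The differences did not pass for CDKN1A, CDKN2C or GADD45B (adjusted p = 0.274, 0.148 and 0.186). Of these 22 genes, 3 were higher and 2 lower in MOLM13 (6.15% and 7.33% of all genes). In SKNO1 4 were higher and 1 lower (3.35% and 4.23%). Both counts of lower genes were near the share of all genes. In the difference edgeR called 0 of the 22 and DESeq2 1.

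**Figure D4:**
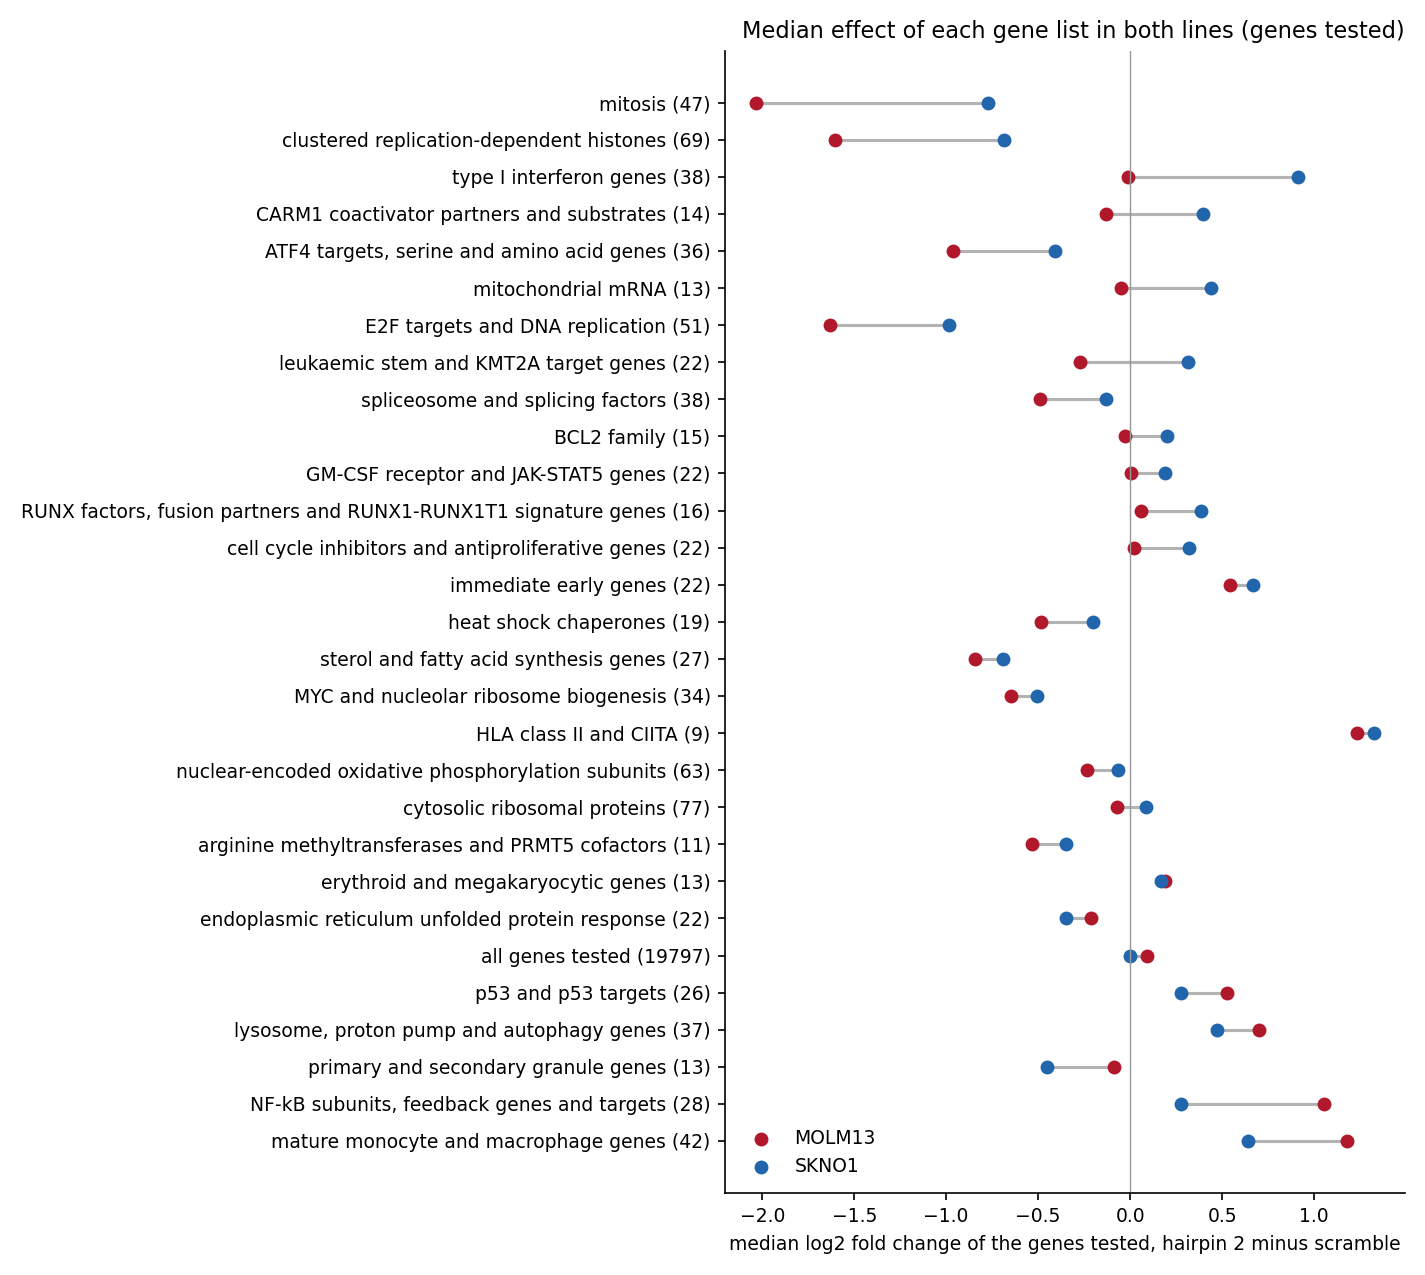
Median log2 fold change of hairpin 2 over scramble for each gene list in MOLM13 (red) and SKNO1 (blue), ordered by the median difference, with the number of genes tested in brackets and no error bars because medians over genes have no replicate error. Mitosis, histone and amino acid genes lie further left in MOLM13, interferon genes further right in SKNO1, and NF-kB and mature myeloid genes further right in MOLM13.

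The called genes were then read in groups that the difference did not use. The 3 MV411 hairpin 2 libraries have their own controls. MV411 is another monocytic line with a KMT2A fusion and a FLT3 duplication. No supplement is listed for MV411 either, so genotype and medium cannot be told apart. MT-RNR2, a mitochondrial rRNA, averaged 236874 CPM in MV411 controls, and 300624 in MOLM13 and 1444 in SKNO1 with hairpin 1. The part of medium or library composition in the MV411 values was not tested. In a fit of all 27 libraries, the MV411 log2 fold change was nearer that of MOLM13 for 32 of the 42 genes and nearer that of SKNO1 for 10. In MV411 10 of the 42 rose and 10 fell. The same counts over all genes were not taken, so these are not read as a result about the 42. MCM2 had -2.51 ± 0.20 in MV411 (adjusted p = 3.89e-08), POLE -1.90 ± 0.22 (4.4e-06), BIRC3 2.12 ± 0.36 (0.000286), MERTK 2.37 ± 0.36 (7.33e-05) and IRX5 -0.97 ± 0.19 (0.00127). MIR3142HG had 1.64 ± 0.33 (0.00153). RGL1, at 1.77 ± 0.27 (6.95e-05), and F13A1, at 2.22 ± 0.51 (0.00432), rose in MV411 as in SKNO1, and PLXNA4 had 0.51 ± 0.52 (0.621).

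Hairpin 1 was compared with the same scramble controls as hairpin 2, so its values are given side by side only. In MOLM13 hairpin 1 had 11 of the 42 genes higher and 13 lower. The share of all genes that passed with hairpin 1 was not counted. BIRC3 had 3.44 ± 0.40 with it, MERTK 3.65 ± 0.52, IRX5 -1.04 ± 0.22, POLE -1.39 ± 0.22 and MCM2 -2.07 ± 0.20. CARM1 itself had -2.36 ± 0.24 with hairpin 1 in MOLM13 and -1.24 ± 0.23 in SKNO1, against -2.62 ± 0.24 and -2.68 ± 0.24 with hairpin 2, so the knockdown by hairpin 1 in SKNO1 had the smallest estimate. With hairpin 1 in SKNO1, RRBP1 was the only one of the 42 that passed, at 1.00 ± 0.22 (adjusted p = 0.0333), and PLXNA4 had 0.39 ± 0.36, BMP6 -0.09 ± 0.23, RGL1 -0.03 ± 0.27 and BIRC3 -1.17 ± 0.33 (adjusted p = 0.0865).

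**Figure D5:**
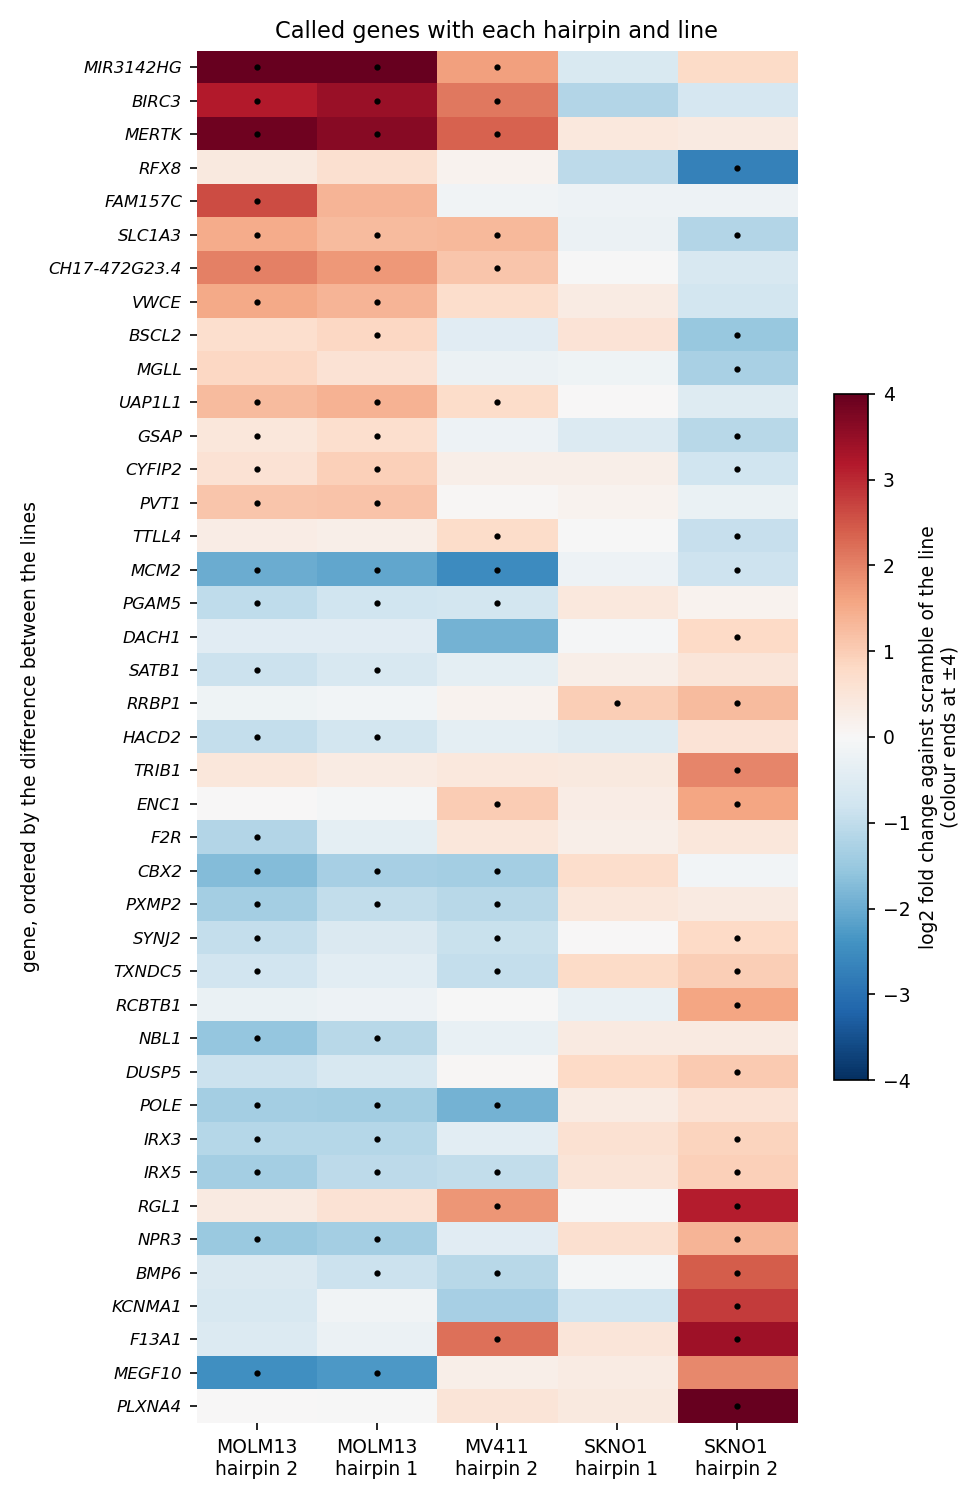
Log2 fold change against the scramble libraries of each line for 41 of the called genes (HIST2H3A is left out), from a fit of all 27 libraries, with a dot where the adjusted p was under 0.05; the colour scale ends at ±4 and genes are ordered by the difference between MOLM13 and SKNO1. BIRC3, MERTK and MIR3142HG are red with a dot in MOLM13 and MV411, and the SKNO1 hairpin 1 column holds 1 dot, at RRBP1.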

How the data were processed

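RNA was sequenced after rRNA depletion with a stranded kit, per the labels' protocols. Reads were processed with STAR 2.5.3, GRCh38.p7 and RSEM (version not given), per the submitters' processing notes. The deposited values are RSEM expected counts, without normalization, for 57992 genes in 27 columns, and 30.39% of non-zero values were not whole (tolerance 1e-09). The strand setting is not given in the sources used here. Counts were rounded. The 12 libraries were fitted in R 4.3.3 with edgeR 4.0.16 (filterByExpr with minimum count 10 and minimum total 15, TMM, quasi-likelihood F-test, 4 group means, 8 residual degrees of freedom). Two-sided p-values were adjusted over all 19797 genes by Benjamini-Hochberg, with a threshold of 0.05. SEs are those of the fit. Positions are from GENCODE 29, which held 57388 identifiers, and sequences from RefSeq tables of GRCh38.p14. DESeq2 1.42.0 and limma 3.58.1 were alternatives. The test was checked on simulated data.

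Named genes followed a rule: CARM1; the largest called differences in either direction at a mean log2 CPM of at least 2, over all libraries or in the controls of both lines, with hairpin 2 libraries not overlapping; up to 6 genes called with opposite signs; up to 5 per direction at least 2-fold larger in SKNO1; and for each list, by p of the difference, up to 3 genes going its main way and 1 going against it. Called genes outside it are marked as named after their values were seen. The comparison, members and lists were chosen with earlier results of these data known. Replicate numbers were not taken as pairs, since the labels give them no meaning beyond a repeat. Deviations from the group means correlated from -0.273 to 0.293 between same-numbered replicates of different groups. Between differently numbered ones they correlated from -0.224 to 0.343.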

Additional observations from a re-analysis of the deposited data

Results flagged for a closer look

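The effect of hairpin 2 differed between MOLM13 and SKNO1, by the test of the difference itself, for 42 genes. The values below are differences of log2 fold changes, MOLM13 minus SKNO1.

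Among genes whose change also passed in both lines, the differences were 1.61 for GSAP, 2.16 for MGLL, 2.70 for SLC1A3 and 1.44 for CYFIP2. Under 0 they were -2.27 for IRX5, -1.71 for SYNJ2, -1.99 for IRX3, -1.72 for TXNDC5, -2.79 for NPR3, -1.88 for DUSP5 and -1.10 for MCM2.

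Among genes that passed in MOLM13 and not in SKNO1, the differences were 3.90 for BIRC3, 2.69 for CH17-472G23.4, 2.28 for VWCE, 4.94 for MIR3142HG, 3.58 for MERTK, 1.44 for PVT1, 1.81 for UAP1L1 and 2.87 for FAM157C. Under 0 they were -10.11 for HIST2H3A, -1.89 for POLE, -1.60 for CBX2, -1.30 for SATB1, -1.69 for PXMP2, -1.87 for NBL1, -1.46 for HACD2, -1.13 for PGAM5, -1.60 for F2R and -4.34 for MEGF10. HIST2H3A shares reads with HIST2H3C, and its value is uncertain for that reason.

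Among genes that passed in SKNO1 and not in MOLM13, the differences were 2.23 for BSCL2, 3.13 for RFX8 and 1.24 for TTLL4. Under 0 they were -2.94 for BMP6, -3.38 for KCNMA1, -4.34 for PLXNA4, -2.74 for RGL1, -1.80 for RCBTB1, -1.47 for TRIB1, -1.51 for ENC1, -3.89 for F13A1, -1.20 for DACH1 and -1.39 for RRBP1.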

How the results depend on the processing

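The count of 42 genes was 49 with the size factors of DESeq2, 49 with upper-quartile scaling, 51 with a mean of at least 1 CPM in the controls of both lines and 40 without mitochondrial rRNA and structured RNAs. It was 683 with no filter on low counts, 502 with DESeq2, 16 with limma-voom, 104 in a fit of all 27 libraries and 4 with SKNO1 scramble replicates 1 and 3 summed, an alternative chosen after seeing the data. A replicate block within each line gave 9 and a block shared by both lines 14. Leaving out 1 library gave 3 to 102. The MOLM13 count of 2668 was 1514 with the replicate block within each line, and 1072 to 3156 with 1 library left out. The SKNO1 count of 1501 was 2298 with no filter, 2499 with DESeq2, 669 and 969 with the replicate block within lines and shared, 621 with the close controls summed, and 312 to 2062 with 1 library left out. The numbers pair the samples only by name. Neither the cause of these shifts nor the strength of the effects lost under the block was tested.

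Of 504 fits of a called gene with 1 library left out, 225 kept the call and 0 changed sign. BIRC3, BMP6 and HIST2H3A kept it in 12 of 12. MCM2 and DUSP5 kept it in 2 of 12, and CYFIP2, FAM157C and MEGF10 in 1 of 12. The CARM1 difference of 0.10 lay between -0.0716 and 0.289 with 1 library left out, and was under 0 without MOLM13 scramble replicate 1 (-0.039), MOLM13 hairpin 2 replicate 1 (-0.0716) or SKNO1 scramble replicate 3 (-0.0371). The PCNA difference of 0.28 lay between -0.0104, without MOLM13 hairpin 2 replicate 3, and 0.506. With 3 libraries a group, small differences were not detectable.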

Other observations

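Lysosome genes, which rise as monocytes mature, were higher in 16 of 37 in MOLM13 (6.15% of all genes were) and in 6 in SKNO1 (3.35%), with 0 lower and medians of 0.70 and 0.47. The MOLM13 count was 5 without scramble replicate 3, and the SKNO1 count was 1 without scramble replicate 1 or with SKNO1 scramble replicates 1 and 3 summed. PSAP, the precursor of the saposins, rose by 1.87 in MOLM13 and had 0.50 in SKNO1, and the protease CTSD rose by 1.56 and had 0.42. In the difference edgeR called 0 of the 37 and DESeq2 called 1. An unadjusted p under 0.05 was found for 5, near the 13.4% of all genes.

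None of the 77 cytosolic ribosomal protein genes passed in either line or in the difference with edgeR, and 0 had an unadjusted p under 0.05 in the difference. That difference was under 0 for 69 of the 77. All 13 mitochondrial mRNAs had a difference under 0, with medians of -0.05 in MOLM13 and 0.44 in SKNO1. In the difference 0 passed, and 2 had an unadjusted p under 0.05, near the 13.4% of all genes.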
